A study of Mus musculus with 4 samples.

Results

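Collagen-rich spots of mouse dorsal skin were compared between the upper dermis, next to the epidermis, and the deep edge of the skin. The spots came from Visium spatial transcriptomics, an array method that captures the RNA of a section on a grid of barcoded spots and so keeps its position. Each spot covers a small region, which may contain several cells of more than 1 type. Each of 4 slices carried 1 dorsal skin section from each of 3 mice, so the slices are technical replicates of the same animals. The paper left 1 section out of its own analysis for its distorted structure. Which deposited spots that covers, if any, is not stated, and all 4 slices were used here. All mice had the genotype *Krox20-CreERT; R26-tdTomato*, received 4-hydroxytamoxifen at P2 and were collected at P38, with no other group or treatment. In this line *CreERT* sits at the *Krox20* locus, and *tdTomato* marks cells that expressed *Krox20* when the drug was given, along with their progeny.

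Spots were chosen by measured expression. Of 6411 spots with at least 250 detected genes, the top 10% of each slice by *Lor*, *Krt1*, *Krt10* and *Krtdap*, genes of the differentiating epidermis, were called epidermis (642 spots). The top 20% of each slice by *Col1a1*, *Col3a1*, *Dcn*, *Lum*, *Sparc* and *Mfap5*, genes of the collagenous matrix, were called dermis-rich unless they were already epidermis, which removed 390 of them. Dermis-rich spots that lay 1 or 2 grid steps from the nearest epidermis spot were superficial, and those at 4 or more steps were deep. Altogether 860 spots entered the comparison, 647 of them superficial (184, 172, 151 and 140 in slices 1 to 4) and 213 deep (40, 54, 60 and 59). Another 32 dermis-rich spots at step 3 belonged to neither group.

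The dermis is built by fibroblasts, which secrete fibrillar collagens, elastic fibre proteins and proteoglycans. Its upper, papillary layer lies under the epidermal basement membrane, holds finer fibres and exchanges WNT, BMP and growth factor signals with keratinocytes and hair follicles. The lower, reticular layer holds coarser collagen bundles, and beneath it lie fat, a thin sheet of skeletal muscle (the panniculus carnosus) and loose fascia, each with fibroblasts of its own. Papillary and reticular fibroblasts arise from separate lineages in mouse skin.

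Position and markers did not bear out the name of deep dermis for the deep spots. Of the 213 deep spots, 95.3% lay within 1 step of a muscle-rich spot (the top 10% of a slice by skeletal muscle genes), and 59.2% were muscle-rich themselves. Moreover, 72.8% touched the edge of the tissue, 86.9% lay 7 or more steps from the epidermis and 54.5% were in the top 20% of their slice by fat genes. The superficial spots had a median distance of 1 step, 96.0% were in the top 50% of their slice by keratinocyte genes, and 0.618% were muscle-rich. The groups are therefore the uppermost dermis with adjoining epidermis and follicles, and collagen-rich tissue along the muscle band, and few dermis-rich spots lay between them (32 at step 3, 5 at step 4 and 6 at step 5). They are called superficial and deep dermis-rich spots here.

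**Figure D1:**
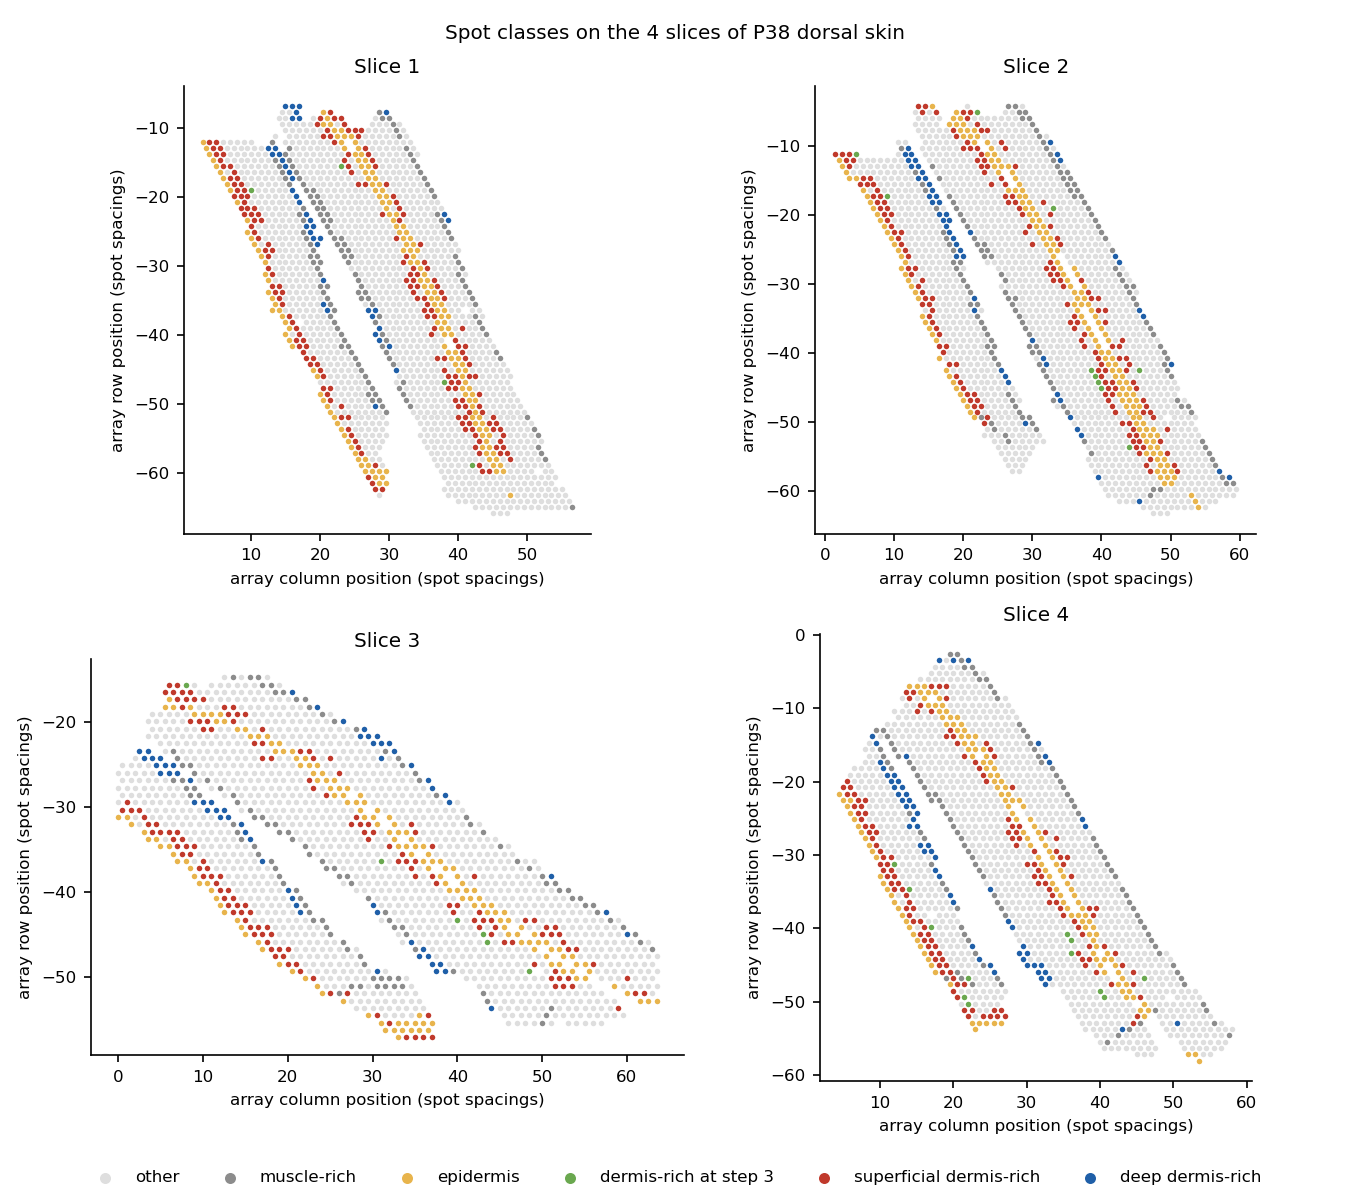
Each of the 4 panels is 1 slice, with every kept spot at its array position (both axes in spot spacings) and coloured by class; muscle-rich spots that were also deep dermis-rich carry the deep colour. Superficial spots (647) follow the epidermis spots, and deep spots (213) follow the muscle-rich band on the opposite side of each section.

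UMIs were summed over the spots of each group in each slice, which gave 1411256 to 2266789 UMIs per superficial sum and 546877 to 984921 per deep sum. Levels are given as CPM, a gene's UMIs scaled to the total UMIs of the same spots. The median spot held 10347 UMIs in the superficial and 13383 in the deep group. Deep spots were the richer in every slice, with a mean log2 difference in median UMIs of -0.38 ± 0.24 (SD, n = 4, exact two-sided sign-flip permutation p = 0.125, the smallest that 4 slices allow). With the top 10% of spots as dermis-rich it was -0.10 (exact sign-flip permutation p = 0.25). Where a level in CPM differs, fewer cells of a type and less RNA per cell cannot be told apart. P-values over slices measure the spread between technical slices and do not cover differences between mice, so a fit over the 3 sections, each summed over slices, is given beside the single genes described where it ended a call, and for the lists with the sections. Those sections were told apart by position, in part by a line drawn along the epidermis spots, which were chosen by expression. The labels do not name the mouse of each section.

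The 6 genes that chose the dermis-rich spots are a description of the groups. *Mfap5*, a microfibril protein, averaged 34.3 ± 6.9 CPM (SD, n = 4) in the superficial and 141 ± 34.6 CPM in the deep spots, whereas *Col1a1* averaged 13693 and 4718 CPM, *Sparc* 5941 and 2794 CPM, and *Lum* 391 and 250 CPM. *Dcn* (971 and 955 CPM) and *Col3a1* (6827 and 7508 CPM) lay close together in both. The spots just inside and just outside the dermis cutoff of a slice had scores of 2.4801 and 2.4784 in slice 1, 2.3697 and 2.3691 in slice 2, 2.2098 and 2.2093 in slice 3, and 2.246 and 2.2429 in slice 4, the score being the mean natural log of 1 plus UMIs per 10000.

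Much of the transcriptome separated the groups. With edgeR's quasi-likelihood test, slice as a block and Benjamini-Hochberg adjustment, 4438 of 9815 genes tested (45.2%) had an adjusted p under 0.05, apart from the 10 genes of the spot rule. Of these, 2233 (22.8%) were higher in superficial and 2205 (22.5%) higher in deep spots, and the median log2 fold change over all genes tested was -0.01. Every superficial slice was above every deep slice in 22.2% of genes, and every deep slice above every superficial one in 16.3%. Across 17 lists of dermal genes, 201 members were tested, of which 82 were higher in superficial spots, 48 were higher in deep spots and 71 were not called. Hence a call by itself says little here, and levels in neighbouring spots are given beside the main genes described.

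Genes of the surrounding tissue moved with both groups. The 14 skeletal muscle genes were all higher in deep spots, where their summed level was 36390 to 45460 CPM against 1407 to 3090 CPM in superficial spots. Among them *Acta1*, skeletal muscle actin, averaged 9389 ± 1220 CPM (SD, n = 4) in deep and 448 ± 160 CPM in superficial spots. Adipocyte genes were higher in deep spots for 11 of 15 tested, with sums of 4003 to 5662 against 1671 to 2173 CPM. Conversely, all 14 basal epidermis genes were higher in superficial spots (sums of 11240 to 12600 against 3463 to 4552 CPM), as were 12 of 14 suprabasal and 12 of 13 sebaceous gland genes. *Krt14*, a keratin of the basal layer, averaged 4399 ± 538 CPM in superficial and 669 ± 202 CPM in deep spots. The part of this tissue in the differences below was not tested. Values without muscle-rich spots, or levels in other spots of the same layer, are given beside some genes. Leaving out muscle-rich spots did not remove muscle RNA, since all 14 skeletal muscle genes were still called deep in that fit.

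These neighbouring spots were of 2 kinds. Other superficial spots were the 899 that lay 1 or 2 steps from the epidermis and were neither epidermis nor dermis-rich. Other spots by muscle were the 1241 that lay 4 or more steps from the epidermis and within 1 step of a muscle-rich spot, and were not dermis-rich. Their levels show how far a gene was higher in collagen-rich spots than around them. Both kinds were spots under the dermis cutoff, so a gene that follows the 6 rule genes is lower there through the choice of spots. These levels are therefore a description and no independent check.

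**Figure D2:**
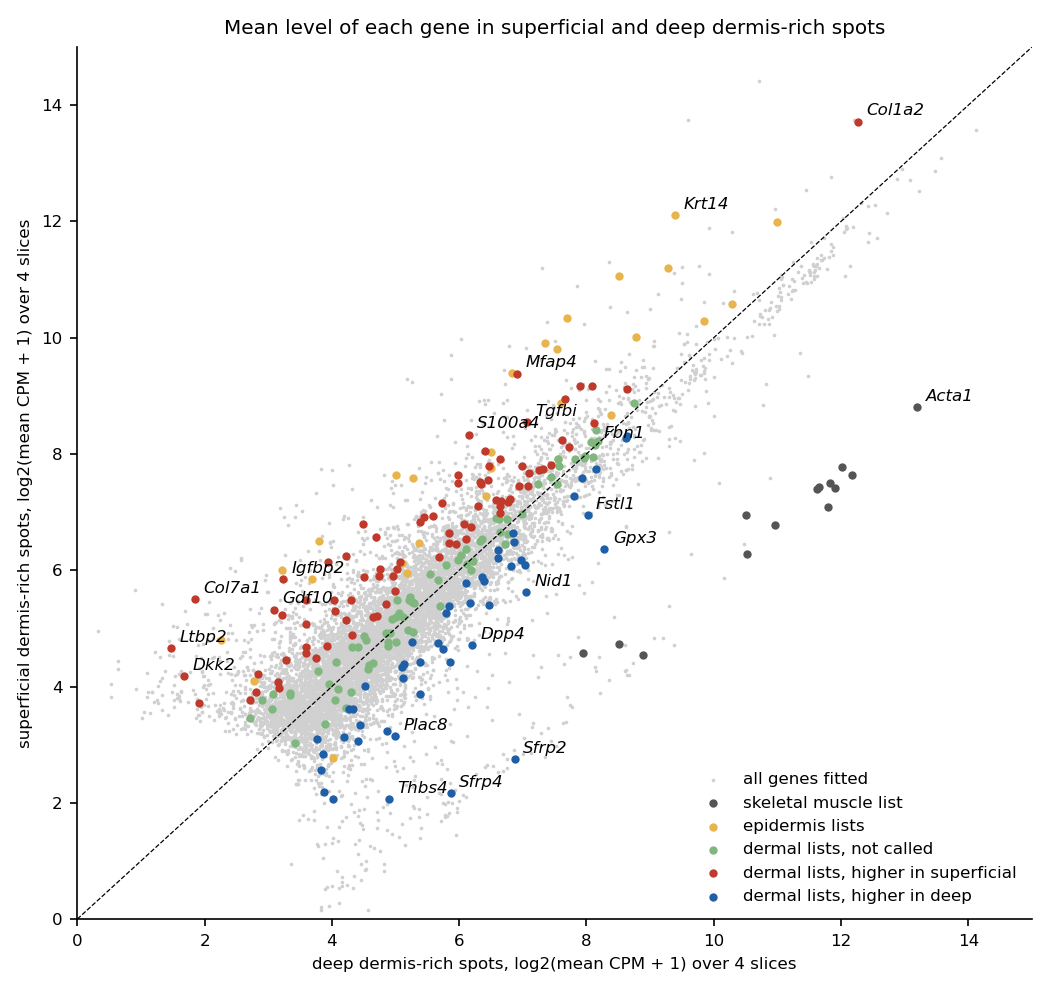
Each point is 1 of 9825 genes fitted, with the log2 of its mean CPM plus 1 over 4 slices in deep (x axis) and superficial (y axis) dermis-rich spots; the dashed line marks equal levels. Muscle genes lie far to the right of the line (*Acta1*, 9389 against 448 CPM), epidermal genes above it (*Krt14*, 4399 against 669 CPM), and dermal list genes on both sides, with *Sfrp2* and *Sfrp4* (116 and 57.3 CPM in deep spots) among the farthest to the right.

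The matrix of the superficial spots was marked by *Mfap4*, a glycoprotein of elastic microfibrils (chromosome 11, 61485431 to 61488900, GRCm38). Its level was 631, 683, 660 and 690 CPM in the superficial spots of slices 1 to 4, and 147, 123, 102 and 104 CPM in the deep spots. The groups did not overlap, and the fitted log2 fold change was 2.44 ± 0.11 (SE), or 5.41-fold (edgeR adjusted p = 4.9e-15). Other superficial spots held 226 ± 18.7 CPM (SD, n = 4), well under the superficial dermis-rich level. It was detected in 96.6% of superficial and 71.4% of deep spots. *Mfap4* was also higher in superficial spots within each section taken alone, with log2 fold changes of 2.28, 2.40 and 2.85 in sections A, B and C.

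*Col1a2*, whose chain joins that of the rule gene *Col1a1* in type I collagen, behaved likewise, with 14050, 13920, 12724 and 13065 CPM in superficial and 6309, 4745, 3942 and 4699 CPM in deep spots. The log2 fold change was 1.40 ± 0.07 (edgeR adjusted p = 5.9e-14). Since *Col1a1* chose the spots, this gene is close to the rule and is no independent evidence. Other collagens of the fibril did not share this. *Col5a1*, *Col5a2*, *Col6a1* and *Col6a3*, which build or coat collagen fibrils, were not called, and their log2 fold changes ran from -0.22 to 0.18. *Col16a1* (198 and 61.9 CPM) and *Col12a1* (32.6 and 11.03 CPM), fibril-associated collagens, were higher in superficial spots, although *Col12a1* reached 48.2 CPM in other superficial spots. *Col14a1* and *Col6a6* were higher in deep spots, so that the 11 tested members of the fibrillar list were split 4 to 2 with 5 not called and a median of 0.02.

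Elastic fibre genes did not move as a block. Of 13 tested, 5 were higher in superficial spots, 1 was higher in deep spots and 7 were not called (median log2 fold change 0.25). *Ltbp2*, which binds fibrillin microfibrils, was at 25.6, 21.5, 23.9 and 25.8 CPM in superficial and at 1.8, 0, 3.99 and 1.28 CPM in deep spots, a log2 fold change of 3.54 ± 0.42 (edgeR adjusted p = 2.4e-07) that rests on 171 and 6 UMIs. Other superficial spots held 12.9 CPM. *Ltbp4* averaged 239 and 98.4 CPM, but other superficial spots held a similar 232 CPM. *Fbn1*, the main fibrillin of skin microfibrils, was at 285 ± 12.9 CPM in superficial and 279 ± 49 CPM in deep spots and was not called. *Emilin2*, another elastic fibre glycoprotein, was the member higher in deep spots (20.4 and 40.9 CPM).

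Small proteoglycans and matrix enzymes had more superficial than deep calls. Of all genes tested, 22.8% were called superficial and 22.5% deep. Of 8 small leucine-rich proteoglycans, which space and organise collagen fibrils, 5 were higher in superficial and 2 in deep spots (median 0.91). *Bgn* (biglycan) was at 513, 626, 600 and 558 CPM in superficial and at 253, 222, 232 and 243 CPM in deep spots, a log2 fold change of 1.21 ± 0.10 (edgeR adjusted p = 2.6e-10) with 297 CPM in other superficial spots, while *Ogn* (osteoglycin) was higher in deep spots (88.6 and 116 CPM). Matrix proteases and their inhibitors were higher in superficial spots for 8 of 16 tested and in deep spots for 2 (median 0.43). *Ctsk*, a collagen-degrading cathepsin, averaged 119 and 42.6 CPM, and *Mmp3*, stromelysin, 43.7 and 18.7 CPM, each with lower levels in other superficial spots (49.8 and 14.1 CPM). *Adamts5*, an aggrecan-cleaving protease, was higher in deep spots (66.1 and 111 CPM). Among collagen-processing enzymes, 6 of 16 were superficial and 4 deep (median 0.21), but the fit over sections called 6 and 1, and the fit without muscle-rich spots 6 and 0. They included *Adamts2*, which trims procollagen, at 178 and 80.5 CPM, and *Loxl1*, a crosslinking enzyme, at 73.2 and 97.0 CPM. The fit over sections did not call *Loxl1* (adjusted p = 0.18).

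*Tgfbi*, a matrix adhesion protein induced by TGF-β, was at 421, 370, 326 and 370 CPM in superficial and 182, 120, 117 and 115 CPM in deep spots (log2 fold change 1.43 ± 0.10, edgeR adjusted p = 4.7e-11). *Cpz*, a secreted carboxypeptidase that binds WNT proteins, was at 193, 231, 167 and 148 CPM in superficial and 84.5, 51.5, 31.9 and 46.1 CPM in deep spots (1.78 ± 0.15, edgeR adjusted p = 7.1e-10). Both were lower in other superficial spots, at 176 and 44.4 CPM. The calcium-binding protein gene *S100a4*, a fibroblast marker also made by leukocytes, averaged 322 ± 38.9 and 69.9 ± 33.2 CPM. *Thy1*, a fibroblast surface protein that T cells also carry, averaged 121 ± 5.2 and 47.2 ± 10.2 CPM. Neither overlapped between the groups, and other superficial spots held 183 and 51.1 CPM. Other general fibroblast genes differed little, since *Pdgfra* (26.4 and 28.5 CPM), *Vim* (470 and 428 CPM) and *Serpinf1* were not called, and of 15 such genes 6 were higher in superficial spots and 1, *Fstl1*, in deep spots.

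Basement membrane genes were called in both directions. *Col7a1*, the anchoring fibril collagen that ties the epidermis to the dermis and is made by keratinocytes as well as fibroblasts, was at 42.1, 48.6, 50.5 and 36.9 CPM in superficial and 0, 4.90, 2.99 and 2.56 CPM in deep spots. Its log2 fold change was 3.87 ± 0.32 (edgeR adjusted p = 5.1e-10), and other superficial spots (34.0 CPM) and epidermis spots (73.0 CPM) also held it. *Col15a1* (181 and 79.3 CPM) and *Col18a1* (220 and 87.1 CPM), which lie at basement membranes, were superficial too. Conversely, *Nid1* (nidogen, which links laminin to type IV collagen) was at 46.9, 41.8, 52.4 and 51.5 CPM in superficial and 162, 135, 116 and 116 CPM in deep spots (-1.52 ± 0.13, edgeR adjusted p = 8.8e-10). *Lama2*, the laminin chain around muscle fibres and peripheral nerve, was at 23.4, 28.8, 23.9 and 19.5 CPM in superficial and 64.7, 53.9, 44.9 and 47.3 CPM in deep spots (-1.195 ± 0.17, edgeR adjusted p = 2.9e-06). Other spots by muscle held less of both (37.0 and 20.9 CPM), and neither call was lost without muscle-rich spots (log2 fold changes of -1.55 and -1.07). Skeletal muscle genes also stayed deep in that fit. In all, 4 of 14 members were superficial (3 in the fit over sections), 4 deep and 6 not called, with a median of 0.04.

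The widest separation among the dermal genes lay in secreted WNT modulators. *Sfrp2* (chromosome 3, 83766321 to 83774316, GRCm38), a secreted Frizzled-related protein that binds WNT ligands, was at 5.64, 1.13, 7.12 and 9.05 CPM in superficial and 119, 141, 101 and 104 CPM in deep spots. *Sfrp4* (chromosome 13, 19623104 to 19632994), of the same family, was at 2.17, 1.69, 5.17 and 4.87 CPM in superficial and 55.7, 68.6, 45.9 and 58.9 CPM in deep spots. The lowest deep slice was far above the highest superficial slice in both genes, and the log2 fold changes were -4.44 ± 0.24 and -4.14 ± 0.27 (edgeR adjusted p = 1.5e-13 and 7.9e-12). Other spots by muscle held 13.8 ± 2.6 and 12.8 ± 3.4 CPM (SD, n = 4), well under the level in deep dermis-rich spots of the same band. Without muscle-rich spots the log2 fold changes were -4.18 and -4.20. *Sfrp2* had a UMI in 69.0% of deep and 4.64% of superficial spots, and *Sfrp4* in 46.5% and 3.25%. By section, *Sfrp2* was at 160, 46.8 and 114 CPM in the deep spots of sections A, B and C and at 9.83, 3.24 and 0.65 CPM in their superficial spots.

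Superficial spots held a different set of WNT genes. *Dkk2*, a Dickkopf protein that binds WNT co-receptors, was at 16.9, 10.2, 16.8 and 24.4 CPM in superficial and 1.8, 2.45, 2.0 and 2.56 CPM in deep spots (2.81 ± 0.41, edgeR adjusted p = 5.6e-06). *Rspo1*, an R-spondin that strengthens WNT responses, was at 13.4, 15.8, 8.41 and 11.1 CPM in superficial and 5.39, 2.45, 2.0 and 1.28 CPM in deep spots (2.10 ± 0.44, edgeR adjusted p = 0.00038). The groups did not overlap in either gene, though both rest on few UMIs (118 and 7 for *Dkk2*, 88 and 8 for *Rspo1*). Other superficial spots held 12.04 and 5.73 CPM, and by distance *Dkk2* was at 19.9 and 12.9 CPM in dermis-rich and 16.9 and 9.60 CPM in other spots at steps 1 and 2. *Sfrp1* and *Dkk3* were also higher in superficial spots, at 113 and 43.9 CPM, but other superficial spots held 144 and 40.7 CPM. *Lef1*, *Wif1*, *Wnt5a*, *Wnt4* and *Nkd2* were higher in deep dermis-rich spots, and each had a higher mean again in other spots by muscle (65.4 against 40.9 CPM for *Lef1*). Of 17 WNT genes tested, 5 were superficial, 8 deep and 4 not called (median -0.48).

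**Figure D3:**
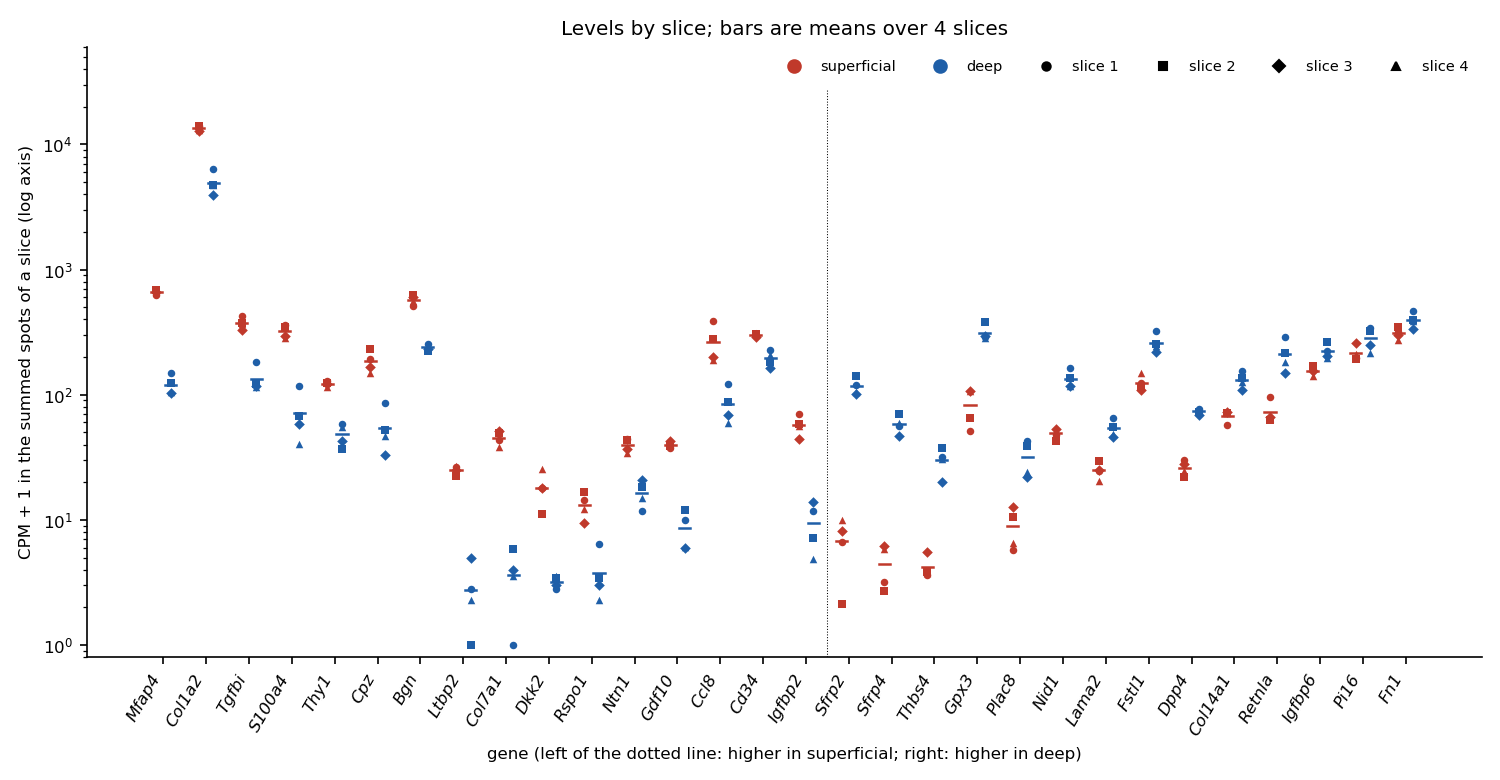
CPM plus 1 on a log axis for 30 dermal genes in the summed superficial (red) and deep (blue) spots of each slice, with a marker shape per slice and bars at the means. The 16 genes left of the dotted line and 12 of the 14 on its right have no overlap between the groups, and *Pi16* and *Fn1* overlap. The 30 genes were chosen after their values were seen. Of all genes tested, 22.2% had every superficial slice above every deep slice, and 16.3% the reverse.

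Of the BMP and TGF-β genes, 8 of 20 tested were higher in superficial and 3 in deep spots (median 0.14). *Gdf10*, a BMP3-like ligand, was at 36.4, 37.8, 41.4 and 40.4 CPM in superficial and 8.99, 11.03, 4.99 and 5.12 CPM in deep spots (2.33 ± 0.26, edgeR adjusted p = 8.5e-08). Other superficial spots held about as much, at 37.7 CPM. *Tgfb3* (14.1 and 5.97 CPM) and the BMP antagonist *Nbl1* (141 and 52.2 CPM) were superficial, and *Id3* (71.4 and 125 CPM), a BMP target, was deep with 166 CPM in other spots by muscle. The receptors *Tgfbr1*, *Tgfbr2* and *Tgfbr3* were not called, with log2 fold changes of -0.35 to 0.09.

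Insulin-like growth factor carriers went both ways. *Igfbp2* was at 69.4, 57.6, 43.3 and 55.7 CPM in superficial and 10.8, 6.13, 12.97 and 3.84 CPM in deep spots (2.60 ± 0.25, edgeR adjusted p = 6.1e-09), though epidermis spots held 199 CPM and other superficial spots 28.1 CPM. *Igfbp6* was at 156, 168, 153 and 141 CPM in superficial and 223, 265, 205 and 196 CPM in deep spots (-0.59 ± 0.10, edgeR adjusted p = 3.1e-05), with 61.2 CPM in other spots by muscle. In section B alone, *Igfbp6* had a log2 fold change of -0.04 and was not called. *Igf2* was higher in deep spots (3.18 and 15.1 CPM), and *Igfbp5* (297 and 290 CPM) and *Igfbp7* were not called. The 13 factors tested were split 1 to 5 with a median of -0.21.

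*Ccl8*, a monocyte-attracting chemokine, varied widely among slices, at 390, 278, 201 and 187 CPM in superficial and 120, 87.0, 67.9 and 58.9 CPM in deep spots. The superficial level was nonetheless above the deep one in every slice, by 2.99-fold in the fit (log2 fold change 1.58 ± 0.11, edgeR adjusted p = 1.7e-11). Other superficial spots held 124 CPM. *Cxcl12* and *Cxcl14* were also superficial (222 and 126, and 490 and 203 CPM), but they were as high in other superficial spots (225 and 586 CPM). Of the complement genes, *C1s1* (41.3 and 87.6 CPM) was deep and *C3* (87.5 and 56.3 CPM) superficial. Over this list of 11, 5 were superficial, 4 were deep and the median was 0.08. Smaller lists gave 1 of 4 hyaluronan genes superficial (*Cd44*), 2 of 4 dermal papilla and sheath genes superficial and 1 deep, and 5 of 13 matricellular genes in each direction (median 0.11).

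*Thbs4*, a thrombospondin of tendon and muscle attachments, led the deep matricellular genes with 2.6, 2.82, 4.53 and 2.78 CPM in superficial and 30.6, 36.8, 19.0 and 29.4 CPM in deep spots (-3.23 ± 0.32, edgeR adjusted p = 1.4e-08). It was at 9.31 CPM in other spots by muscle. Conversely, *Tnc* (tenascin C) was at 74.5 CPM in superficial and 17.6 CPM in deep spots, with 113 CPM in other superficial spots.

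Genes listed for reticular and hypodermal fibroblasts gave no stable direction as a list. Of 17 tested, 9 were higher in deep spots, 4 in superficial spots (*Mgp*, *Cd34*, *Clec3b* and *Ly6c1*) and 4 were not called, with a median of -0.42. The fit over sections gave 7 deep and 4 superficial calls, and without muscle-rich spots 5 of 15 tested were deep with a median of -0.10. The median turned to 0.07 in section B alone and to 0.58 in section C alone (13 genes tested in each), which held 53 and 42 deep spots. It was -0.04 with slice and section together as the block and -0.11 with the top 30% of spots as dermis-rich. *Gpx3*, a secreted glutathione peroxidase, was at 49.9, 63.8, 106 and 105 CPM in superficial and 286, 381, 291 and 283 CPM in deep spots (-2.04 ± 0.15, edgeR adjusted p = 9.1e-11). *Plac8* was at 4.77, 9.60, 11.6 and 5.57 CPM in superficial and 41.3, 37.999, 20.96 and 23.03 CPM in deep spots (-2.02 ± 0.29, edgeR adjusted p = 4.6e-06). *Col14a1*, a fibril-associated collagen, was at 56.0, 70.0, 71.8 and 71.0 CPM in superficial and 153, 136, 109 and 125 CPM in deep spots (-1.02 ± 0.13, edgeR adjusted p = 4.6e-07). These 3 genes did not overlap between the groups, and other spots by muscle held 101, 8.23 and 42.5 CPM. *Cd34*, a surface sialomucin of fibroblasts, vessels and bulge stem cells, went the opposite way, with 300 ± 8.6 CPM in superficial and 194 ± 27.9 CPM in deep spots (0.57 ± 0.10, edgeR adjusted p = 4.8e-05) and 152 CPM in other superficial spots. With the top 10% of spots as dermis-rich, *Cd34* had a log2 fold change of 0.33 and was not called (adjusted p = 0.088).

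*Pi16* and *Fn1*, the first a marker of fascia and adventitial fibroblasts and the second fibronectin, differed least of the deep genes shown. *Pi16* was at 196, 190, 257 and 210 CPM in superficial and 340, 325, 247 and 215 CPM in deep spots (-0.46 ± 0.12, edgeR adjusted p = 0.0042). *Fn1* was at 315, 344, 298 and 274 CPM in superficial and 462, 396, 331 and 388 CPM in deep spots (-0.42 ± 0.09, edgeR adjusted p = 0.0008). The groups overlapped in both, and the fit over sections called neither (adjusted p = 0.094 and 0.067).

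Genes listed for papillary fibroblasts gave no single direction, with 5 of 13 superficial, 4 deep and 4 not called (median 0.37, or -0.27 with superficial spots at step 2 alone). *Ntn1*, a netrin, was at 42.9, 42.3, 35.6 and 33.4 CPM in superficial and 10.8, 17.2, 19.96 and 14.1 CPM in deep spots (1.18 ± 0.21, edgeR adjusted p = 6.2e-05), with 20.5 CPM in other superficial spots. Taking superficial spots at step 2 alone ended this call (log2 fold change 0.42, adjusted p = 0.25). *Lrig1*, also a stem cell marker of the upper follicle, was at 110 and 21.4 CPM, with 139 CPM in other superficial spots. *Dpp4*, a surface peptidase listed for papillary precursors and known in fascia fibroblasts too, was deep, at 29.1, 20.9, 27.2 and 23.7 CPM in superficial and 75.5, 72.3, 67.9 and 75.5 CPM in deep spots (-1.60 ± 0.15, edgeR adjusted p = 6.4e-09). Other spots by muscle held 46.8 CPM, and other spots at steps 4, 5 and 6 or more held 41.8, 50.9 and 49.2 CPM. The other deep members, *Lef1*, *Axin2* and *Nkd2*, are WNT pathway genes of the hair follicle as well, and *Pdpn* (43.7 and 31.4 CPM) was not called.

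*Fstl1*, a secreted follistatin-like glycoprotein, was at 123, 113, 108 and 147 CPM in superficial and 320, 253, 217 and 243 CPM in deep spots (-1.14 ± 0.11, edgeR adjusted p = 5.3e-09). *Retnla*, a resistin-like protein of fat and macrophages, was at 95.0, 62.1, 65.3 and 64.7 CPM in superficial and 289, 216, 149 and 183 CPM in deep spots (-1.60 ± 0.11, edgeR adjusted p = 4.0e-11). Both were lower in other spots by muscle (76.4 and 66.1 CPM) than in deep dermis-rich spots.

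Whether a difference between the layers was particular to dermis-rich spots was tested as an interaction. Superficial and deep dermis-rich spots were set against superficial and deep spots that were neither dermis-rich nor epidermis (899 and 3252 spots), and a negative value means that the deep side gained more in dermis-rich spots. Of 11820 genes, 1524 (12.9%) were called by edgeR's quasi-likelihood test with Benjamini-Hochberg adjustment, 434 (3.67%) toward superficial and 1090 (9.22%) toward deep dermis-rich spots. The dermis score enters both sides of this test through the choice of spots, so it describes where a gene lay and not an independent class of cells.

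The deep genes above had the larger part in it. *Sfrp2* had an interaction of -3.12 ± 0.54 on the log2 scale (SE, edgeR adjusted p = 0.00019), and *Sfrp4* one of -2.24 ± 0.55 (edgeR adjusted p = 0.0068). *Gpx3* (-2.02 ± 0.19), *Nid1* (-1.81 ± 0.16) and *Fstl1* (-1.67 ± 0.13) were also called toward deep dermis-rich spots. *Pi16* (-2.10 ± 0.16) and *Fn1* (-1.79 ± 0.12), which hardly differed between the dermis-rich layers, were called as well, and in other spots both were higher on the superficial side (124 against 73.1 CPM by muscle for *Pi16*). All 17 tested members of the reticular and hypodermal list were called in this direction, *Cd34* (-0.93 ± 0.11) included, but so were 11 of 15 pan-fibroblast genes, 9 of 11 fibrillar collagen genes, 9 of 16 collagen-processing genes, all 14 skeletal muscle genes, all 7 Schwann cell genes and all 12 mitochondrial genes tested. The direction was thus shared with other lists and was not particular to reticular genes.

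Among the superficial genes, 3 showed a steeper difference in dermis-rich spots, namely *Ltbp2* (1.97 ± 0.52, edgeR adjusted p = 0.012), *Rspo1* (1.89 ± 0.57, 0.026) and *Igfbp2* (1.195 ± 0.31, 0.0092). *Mfap4* (-0.53 ± 0.13), *Col1a2* (-0.80 ± 0.10), *Tgfbi* (-1.32 ± 0.12), *S100a4* (-0.71 ± 0.21) and *Cpz* (-0.77 ± 0.20) had a shallower one than other spots, although their levels were higher in dermis-rich spots of both layers. For *Thy1*, *Bgn*, *Col7a1*, *Dkk2*, *Ntn1*, *Gdf10* and *Ccl8* the interaction was not called, with values between -0.22 and 1.05.

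Levels by distance from the epidermis, with step 3 included, are given as a description. *Mfap4* was at 833 ± 55.1 CPM at step 1 (SD, 4 slices), 422 ± 18.4 CPM at step 2, 241 ± 1.7 CPM at step 3 (2 slices) and 110 ± 7.8 CPM at 6 or more steps. Step 2 lay below step 1 in every slice, so the level differed within the superficial group itself. *Sfrp2* was at 4.49, 8.01, 3.52 and 120 CPM at those distances, so that its level was low at steps 1 and 2 and high along the muscle band. Its value at step 3 comes from 2 slices at 0 and 7.04 CPM and so lies near the floor. *Gpx3* differed from both, with 63.4, 108 and 130 CPM at steps 1, 2 and 3, where the 2 slices at step 3 were at 56.4 and 204 CPM, and 320 CPM at 6 or more steps. *Pi16* was highest at both ends, at 248, 162, 63.4 and 284 CPM.

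**Figure D4:**
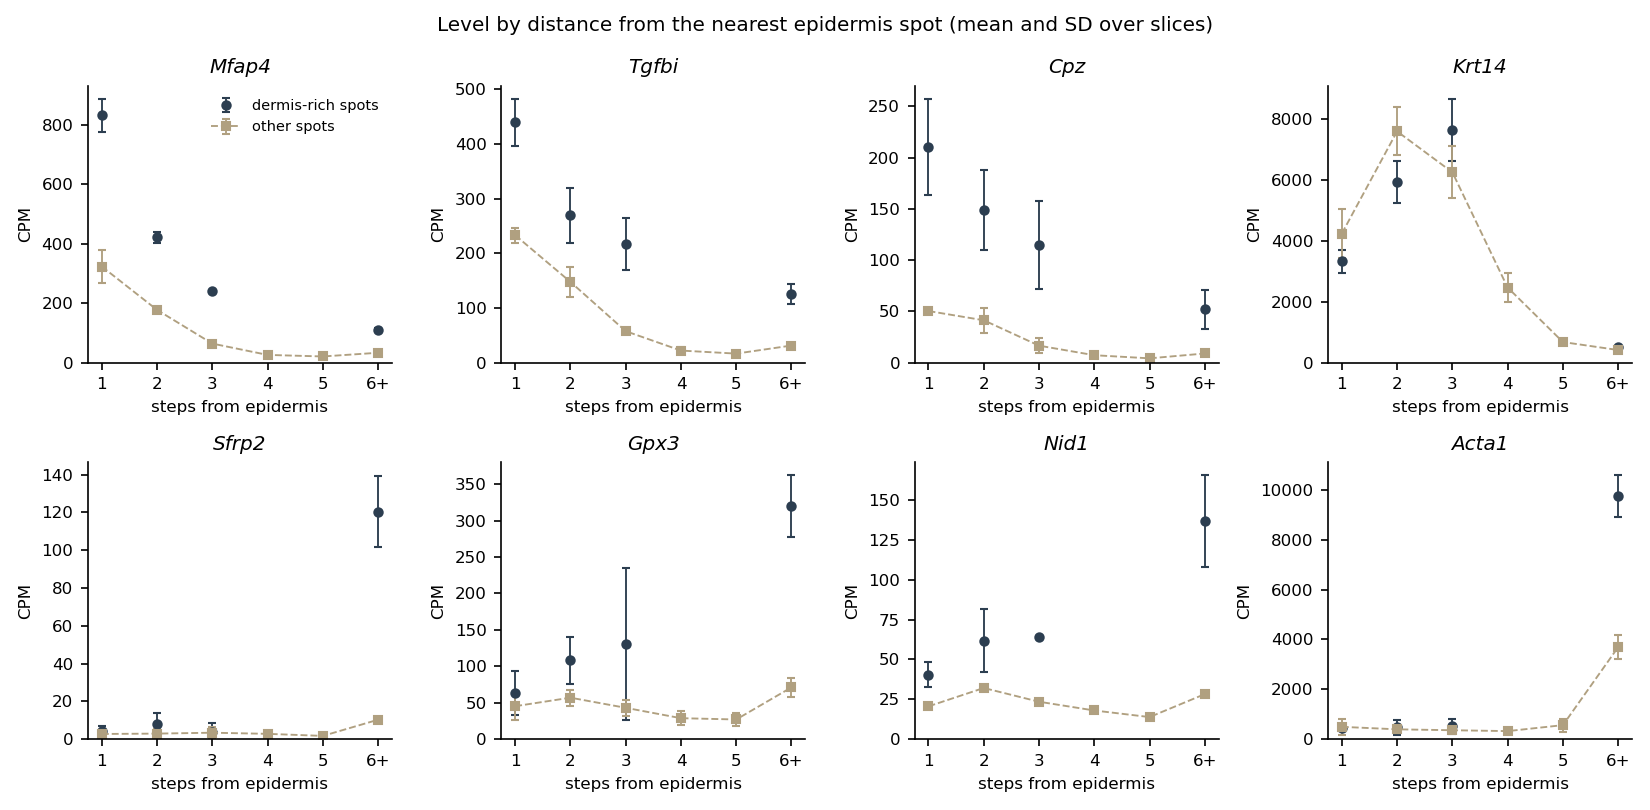
CPM against grid steps from the nearest epidermis spot in dermis-rich spots (circles) and in other spots (squares, dashed line), as means with SD over slices with at least 10 such spots; dermis-rich spots at step 3 come from 2 slices, and those at steps 4 and 5 were too few to plot. *Mfap4* is at 833 CPM at step 1 and 110 CPM at 6 or more steps, whereas *Sfrp2* is at 4.49 CPM at step 1 and 120 CPM at 6 or more steps.

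Beyond the lists, genes were sought that stood above their surroundings, a description set after the data had been seen and carrying no test. The dermis score enters it through the choice of spots. In all, 1607 called genes were higher in superficial spots in every slice and averaged at least 20 CPM. Of these, 72 (4.48%) were at least 1.5-fold higher in superficial dermis-rich than in other superficial spots of every slice. The fit over sections, which sums the same spots another way, also called 69 of the 72. Over all genes called between the layers and tested there, 84.28% were called in the same direction. The 72 genes included *Cyp2f2* (37.7 and 3.92 CPM), *Aldh3a1* (48.2 and 6.96 CPM), *Serpina3n* (72.6 and 18.1 CPM), a secreted protease inhibitor, and *Creb3l1* (99.5 and 42.8 CPM), a transcription factor of collagen-secreting cells. Several were leukocyte genes, such as *Laptm5* (62.7 and 22.1 CPM), *Coro1a* (36.9 and 17.5 CPM) and *Tyrobp* (43.99 and 26.4 CPM).

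Of 1397 such deep genes, 79 (5.655%) passed the same rule against other spots by muscle. Beside the 84.28% over all called genes, 72 of them were also called in the fit over sections. Part were genes of muscle fibres (*Myot*, 7.40 and 173 CPM; *Casq1*, 27.5 and 588 CPM), so deep dermis-rich spots exceeded their neighbours in muscle as well as in matrix. Of the 75 that could be tested without muscle-rich spots, 52 were still called, beside 54.69% over all called genes tested there. That fit also still called all 14 skeletal muscle genes deep. Matrix and secreted members included *Gpc3* (34.9 and 95.6 CPM), a glypican, *Dpt* (182 and 249 CPM), dermatopontin, *Sod3* (11.97 and 42.7 CPM), extracellular superoxide dismutase, and *Islr* (14.1 and 34.0 CPM). *Ace* (13.8 and 40.7 CPM), which makes angiotensin II, *Ackr3* (17.3 and 46.0 CPM), a scavenger receptor for CXCL12, and *Ifi205* (8.31 and 37.4 CPM) were also among them.

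**Figure D5:**
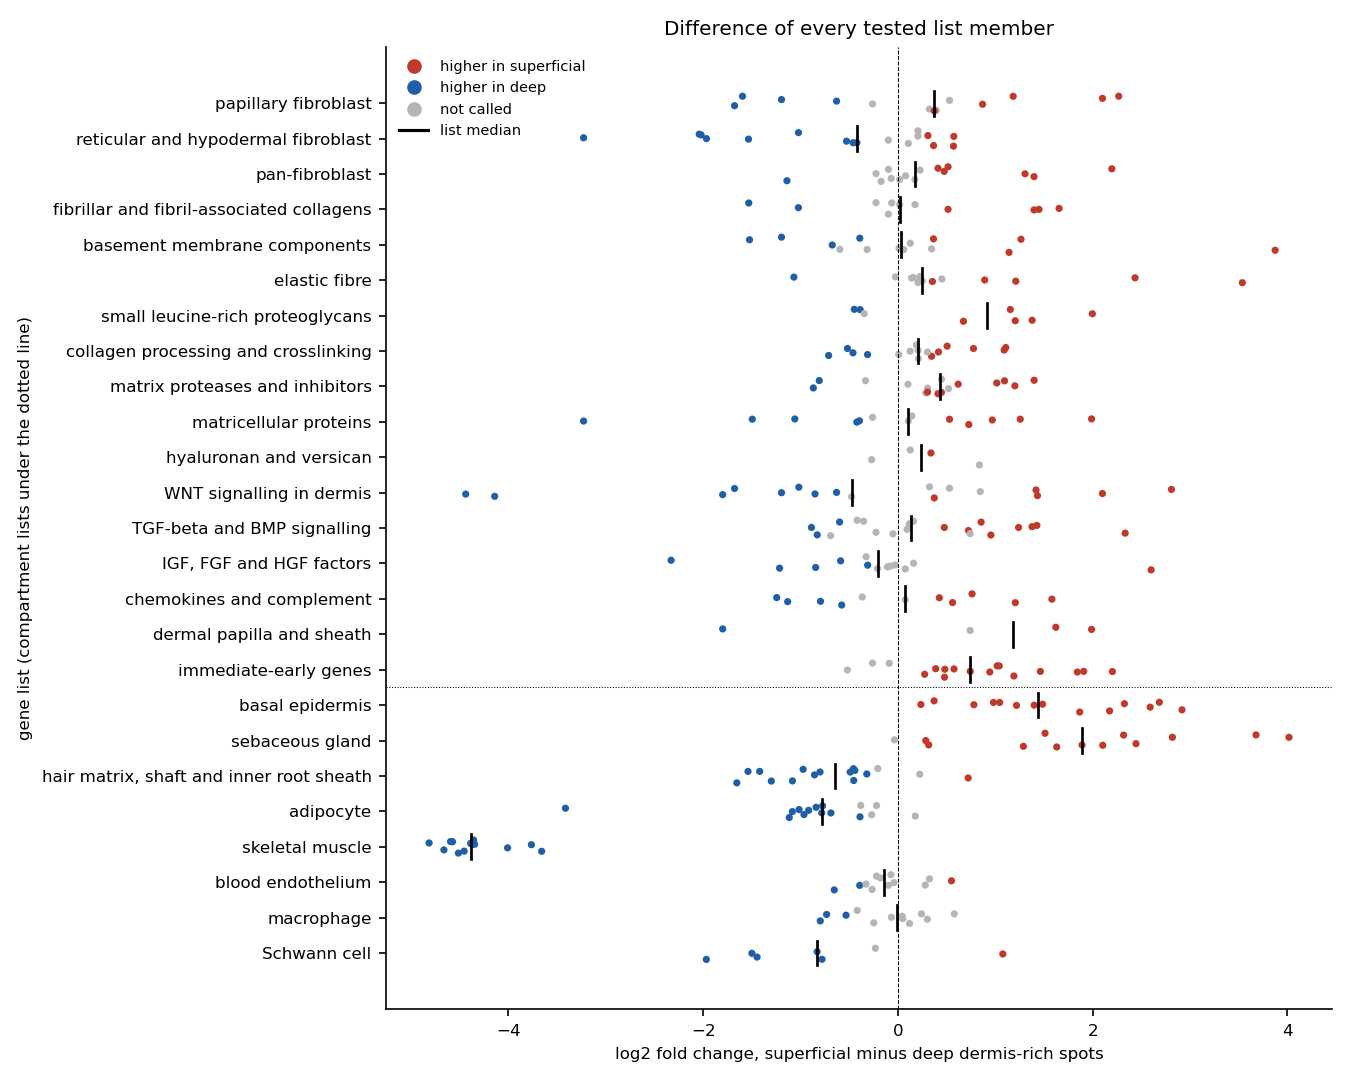
Each point is the log2 fold change (x axis, superficial minus deep dermis-rich spots) of 1 tested gene of a list (y axis), coloured by its call, with a black bar at the list median; compartment lists stand under the dotted line. Medians run from -0.48 (WNT signalling) to 1.18 (dermal papilla and sheath, 4 genes) among dermal lists and reach -4.38 for skeletal muscle.

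By fold change, with the rule genes and compartment lists left out, the 15 leading superficial genes were *Igha*, *Igkc*, *Cst6*, *Plet1*, *Col7a1*, *C130079G13Rik*, *Fxyd4*, *Slc5a5*, *Atp12a*, *Atp6v1c2*, *Car6*, *Wfdc18*, *Cpsf4l*, *Spink12* and *Nlrp10*. *Cst6*, a protease inhibitor of the epidermis and follicle, was at 13789 CPM in superficial dermis-rich, 14444 CPM in other superficial and 774 CPM in deep spots, and *Plet1*, a marker of the upper follicle, at 624, 704 and 35.3 CPM. *Igha* (49.4 and 0.88 CPM) and *Igkc* (42.0 and 1.53 CPM), the antibody chains of plasma cells, came from few spots, with 74.4% and 75.9% of their superficial UMIs in 10 of 647 spots. With the top 5% of spots as epidermis, both turned to the deep side, at log2 fold changes of -0.80 and -1.09. The 15 leading deep genes were *Trim54*, *Smpx*, *Nrap*, *Cox6a2*, *Actn2*, *Dhrs7c*, *Myot*, *Myoz2*, *Apobec2*, *Klhl41*, *Jsrp1*, *Casq1*, *Txlnb*, *Asb5* and *Ckmt2*, led by genes of the sarcomere and its calcium store. *Trim54* was at 60.8 CPM in deep dermis-rich spots, 1.71 CPM in superficial ones and 32.2 CPM in other spots by muscle.

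Immediate-early genes, which stimuli switch on within minutes, were superficial for 14 of 17 tested (median 0.74), with none deep. *Fos* averaged 43.8 ± 7.8 and 11.1 ± 2.9 CPM (SD, n = 4) and *Egr1* 181 ± 25.3 and 62.1 ± 11.2 CPM. *Krox20* (*Egr2*), whose locus drives the *CreERT* of these mice, was at 70.0 ± 6.3 CPM in superficial and 14.4 ± 3.2 CPM in deep dermis-rich spots (log2 fold change 2.20 ± 0.18, edgeR adjusted p = 6.2e-10). Other superficial spots held similar or higher levels of these 3 genes, at 38.9, 218 and 84.4 CPM.

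Each slice was split by position into sections A, B and C, taken as those of the 3 mice. The line between B and C followed the epidermis spots, which were chosen by expression. Section A held 263 superficial and 118 deep spots, section B 235 and 53, and section C 149 and 42. When each section was summed over slices and used as the unit, 3918 genes were called, and 3722 of the 4416 genes called over slices and tested here were called in the same direction. Over the lists, this fit called 12 immediate-early genes superficial against 14 over slices, and 7 protease genes against 8. It called 4 matricellular genes on each side against 5, and 4 superficial and 3 deep chemokine and complement genes against 5 and 4. On the deep side it called 1 proteoglycan gene against 2, 2 BMP and TGF-β genes against 3, 4 growth factor genes against 5 and 9 adipocyte genes against 11. On the superficial side it called 13 basal genes against 14, 11 suprabasal genes against 12 and 11 sebaceous gland genes against 12. *Mfap4* was at 649, 641 and 723 CPM in the superficial and 124, 116 and 91.6 CPM in the deep spots of the sections, and *Sfrp4* at 4.91, 2.84 and 0.65 CPM and at 62.5, 45.8 and 60.5 CPM. Neither gene overlapped between layers. Section C differed from the others in its *Xist* reads, which were 88.4% of all reads of *Xist* and 4 Y-linked genes against 11.2% in A and 8.31% in B, and *Xist* was not called between the layers. These reads set section C apart but did not separate A from B.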

How the data were processed

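Spatial transcriptomics of P38 dorsal skin was analyzed from UMI counts per gene and spot. The authors deposited these counts for each of 4 slices, made with Space Ranger 2.0.1 on mm10 per the labels, for 32286 features and spots over tissue. The counts were not normalized by the authors, and neither spots nor slices were pooled. Slices held 19393026 to 26910422 UMIs. Spots with under 250 genes (9) were left out, and no doublet caller was run.

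Spot scores were the mean of ln(1 + 10000 × UMIs / total). Counts were summed per slice and layer and tested in edgeR 4.0.16 (R 4.3.3; TMM, filterByExpr, quasi-likelihood, slice as block), with Benjamini-Hochberg adjustment over 9825 genes. Both sums of a slice come from the same sections, and the block pairs them by slice. The sections entered them in unlike shares, so the block did not pair sections. In slice 1, sections A, B and C gave 75, 60 and 49 superficial but 23, 14 and 3 deep spots. The deviations of both sums from the layer means correlated at only 0.15, 0.06, 0.06 and 0.09 in slices 1 to 4, across 9825 genes. CPM are means ± SD over slices. Genes were placed by Ensembl identifier in GENCODE M21 (GRCm38). Steps and permutations used Python 3.11.15 and scipy 1.17.1. In data simulated for superficial against deep, the test recovered 81% of 200 genes with a true log2 fold of 1 out of 9584 fitted. False calls made up 8.47% of calls, more than the adjusted p threshold of 0.05 aims at. The simulation held no slice effect and changed far fewer genes than the 45.2% called in the data. Its shares may therefore not carry over.

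The spots, the 35 gene lists and the tests were chosen with earlier results of these data known. Named genes were the 15 with the largest and the 15 with the lowest fold change among called genes of at least 20 CPM with 1 sign in every slice, outside the spot rule and the compartment lists, and, of each list, members that were called with the largest change or not called at the highest level. The 30 genes shown by slice were chosen from the lists after their values were seen. Alternatives covered the spot rule, depth, the tool (DESeq2 1.42.0), normalization, the low-count filter, the block, each slice left out and strips. Sections as units or alone, and leaving out muscle-rich spots, were chosen after seeing the data. Sections were told apart by position, with the line between B and C drawn along the epidermis spots. The labels do not name the mouse of each section.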

Additional observations from a re-analysis of the deposited data

Results flagged for a closer look

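Among the 60 groups of 4 slices formed by the 30 genes shown by slice, 5 had a slice far from the other 3, and chance gives about 1 in 20. In deep spots, *Tgfbi* was highest at 181.5515 CPM and *Gpx3* at 381.2171 CPM. In superficial spots, *Thbs4* was highest at 4.5281 CPM, *Retnla* was highest at 95.0049 CPM and *Col14a1* was lowest at 55.9618 CPM. None of these slices closed the gap between the layers.

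The difference between layers itself differed between dermis-rich and other spots for 23 of the 30 genes by the edgeR interaction test, given here on the log2 scale. It was larger on the superficial side for *Ltbp2* (1.97), *Rspo1* (1.89) and *Igfbp2* (1.195). Toward deep dermis-rich spots it was called for the superficial genes *Mfap4* (-0.53), *Col1a2* (-0.80), *Tgfbi* (-1.32), *S100a4* (-0.71), *Cpz* (-0.77) and *Cd34* (-0.93). The deep genes called were *Sfrp2* (-3.12), *Sfrp4* (-2.24), *Pi16* (-2.10), *Plac8* (-2.04), *Thbs4* (-2.02), *Gpx3* (-2.02), *Nid1* (-1.81), *Fn1* (-1.79), *Igfbp6* (-1.72), *Fstl1* (-1.67), *Retnla* (-1.59), *Col14a1* (-1.39), *Lama2* (-1.32) and *Dpp4* (-0.56).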

How the results depend on the processing

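The total of 4438 (2233 superficial, 2205 deep) became 2059 (1007, 1052) with the top 10% of spots as dermis-rich, 2484 (1246, 1238) with spots thinned to 5500 UMIs, 2543 (1302, 1241) with DESeq2 and 2287 (1148, 1139) without muscle-rich spots. It was 2848 (1355, 1493) with slice and section together as the block, and 2811 (1388, 1423), 1902 (945, 957) and 1095 (557, 538) in sections A, B and C alone. Leaving out 1 slice at a time gave totals of 3576 to 4242 (1788 to 2158 superficial, 1787 to 2084 deep). It gave interaction counts of 855 to 1182 against 1524, of which the 855 came without slice 2, and mean log2 differences in UMIs per spot of -0.47 to -0.29, against -0.10 with the top 10% of spots. DESeq2 used the same spots and genes, and the cause of these moves was not tested. Library size alone gave 2505 superficial and 1913 deep genes and no filter 2743 and 2206, so the split between sides moved with scaling and filter. Without the replicate block, 4261 genes were called between layers and 1078 by the interaction, so the block changed no count by over 1.5 times.

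Of the 4438 genes called, 2465 were tested in section C alone, where 1017 were called in the same direction and 25 in the opposite one. Opposite calls numbered 1 in section B alone, 2 at step 2 alone and 0 under the other alternatives. For the 30 genes shown by slice, 634 of 651 comparisons in which the gene was tested kept direction and side of the threshold. The call was lost in 17, those of *Pi16* (8), *Fn1* (6), and 1 each of *Ntn1*, *Cd34* and *Igfbp6*. *Rspo1* was tested under 13 of 23 settings and *Dkk2* under 15. These 30 genes were chosen after their values were seen. Over all genes called and tested again, the share called in the same direction ran from 41.26% (section C alone) to 99.48% (at least 1000 genes per spot). *Igha* and *Igkc* reversed with the top 5% of spots as epidermis, to log2 fold changes of -0.80 and -1.09. List medians moved by more than their spread in 65 of 391 comparisons, and for 12 of 17 dermal lists the sign turned under at least 1 setting. Leaving out spots rich in fat or muscle left 0 slices with enough spots, and leaving out keratinocyte-rich spots left 1, so these settings gave no value.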

Other observations

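Several other cell types were spread unevenly over the dermis-rich spots. Beside the counts below, 22.8% of all genes tested were called superficial and 22.5% deep. Genes of MHC class II and Langerhans cells were higher in superficial spots for 5 of 5 tested, with *Cd74* at 486 ± 121 and 107 ± 46.2 CPM (SD, n = 4) and other superficial spots at 181 CPM. Both T cell genes tested (1 in the fit over sections) and 2 of 3 lymphatic endothelial genes were superficial too. So were 6 of 9 outer root sheath genes. Of 2 mast cell genes tested 1 was superficial, but the mast cell list summed to 53.9 CPM in superficial and 55.0 CPM in deep spots. *Thy1*, 1 of the 2 T cell genes, is also counted among the fibroblast genes above. The T cell list summed to 161 CPM in superficial and 236 CPM in epidermis spots. Macrophage genes were mostly not called (9 of 12), with 3 deep (1 in the fit over sections), and *C1qa* was at 79.8 and 80.1 CPM. Blood endothelial genes were not called for 9 of 12.

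Deep spots held more Schwann cell RNA, with 5 of 7 genes deep (4 in the fit over sections) and summed levels of 798 to 1142 against 356 to 550 CPM. Red blood cell genes (4 of 4 tested), melanocyte genes (4 of 5), hair matrix and shaft genes (13 of 16, and 11 in the fit over sections) and mitochondrial genes (12 of 12) were deep as well. Other spots by muscle held more of the melanocyte genes (578 against 494 CPM in deep dermis-rich spots) and of the hair matrix and shaft genes (29430 against 26830 CPM). They held less of the red blood cell (2662 against 3797 CPM), mitochondrial (56400 against 77250 CPM) and Schwann cell genes (163 against 963 CPM). Smooth muscle and pericyte genes split, 5 of 13 superficial and 3 deep, with *Cnn1*, of contractile smooth muscle, at 31.9 and 1.83 CPM and *Rgs5*, of pericytes, at 42.8 and 95.9 CPM.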
